A study of Mus musculus with 3 samples.

Results

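Nitric oxide synthesis and its control were examined in endothelial cells of the adult mouse renal medulla through 10 genes. These were the nitric oxide synthases Nos1, Nos2 and Nos3, the synthase binding proteins Nostrin and Nosip, the enzymes Ddah1 and Ddah2 that break down an inhibitor of the synthases, Gch1, which makes their cofactor, the arginase Arg2, and Prkg1, a kinase that acts downstream. They were taken by name, each through the probe set that the array's annotation assigned to it alone, and all 10 were found among the 19938 genes measured this way. Each had 1 such probe set. The cells came from adult male FVB/N mice carrying Tg(TIE2GFP)287Sato, in which green fluorescent protein follows the Tie2 (Tek) promoter. The medulla was dissected, digested with Collagenase A and sorted for fluorescence, and each of 3 samples pooled 2 kidneys. RNA went through 1 round of amplification and was hybridised to an Affymetrix Mouse Gene 1.0 ST array. All 3 samples formed 1 group, with no control or second compartment analysed here, so the data give levels and their spread, and no response to a condition. The Tie2 promoter is also active in some blood-forming cells.

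Nitric oxide is a gas that endothelial cells make from arginine and that relaxes the smooth muscle around a vessel. The endothelial enzyme Nos3 works as a dimer, needs calmodulin and the cofactor tetrahydrobiopterin, and sits in caveolae, where caveolin holds it inactive. Asymmetric dimethylarginine blocks all synthases, and arginases compete with them for arginine. In the target cell nitric oxide binds soluble guanylate cyclase, and the cyclic GMP it makes activates the kinase encoded by Prkg1. In the renal medulla the gas is known for widening the vasa recta and for reducing salt reabsorption in the thick ascending limb.

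The sorted cells held the markers their label calls for, and signal from some tubule markers was present as well. All 12 endothelial markers, such as the adhesion molecule Pecam1 (log2 level 12.44 ± 0.08, SD, n = 3) and the junction protein Cdh5 (12.71 ± 0.18), were called above the background limit explained below, as were all 6 markers of the descending and all 5 of the ascending vasa recta. Of the marker lists, that of the thick ascending limb differed most between the arrays, with a summed level of 5552 units in replicate 1, 3364 in replicate 2 and 2513 in replicate 3. Each of the 8 proximal straight tubule markers had 1 deposited value in all arrays, as 46.3% of all genes had. Of these markers 2 were called above the background limit, beside 52.4% of all genes. In a pool of sorted cells a smaller number of cells that express a gene and a smaller amount of RNA per cell cannot be told apart.

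Promoter sequence was available for 7 of the members in RefSeq (build GRCm38.p6), in 8 windows of 250 bases before to 30 bases after the transcription start. Nos3, Nos2 and Arg2 had no entry. The windows are shown for both genes that encode synthase binding proteins, since they were the 2 members with a match to the letters CGGAAG, the core of sites that ETS factors, a family known for endothelial genes, can bind. Capitals mark this match, which was searched on both strands and occurred in 5252 of all 32851 promoter windows (16%). The windows of the 2 Ddah genes follow, as 1 of them had the widest spread between arrays of all members and the other had equal deposited values.

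Nostrin, chr2:69135550-69135829, + strand: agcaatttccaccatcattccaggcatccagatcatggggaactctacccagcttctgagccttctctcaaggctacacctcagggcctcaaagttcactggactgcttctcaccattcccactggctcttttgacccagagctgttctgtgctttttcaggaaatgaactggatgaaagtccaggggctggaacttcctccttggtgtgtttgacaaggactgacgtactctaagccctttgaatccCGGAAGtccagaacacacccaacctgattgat
Nosip, chr7:45062179-45062458, + strand: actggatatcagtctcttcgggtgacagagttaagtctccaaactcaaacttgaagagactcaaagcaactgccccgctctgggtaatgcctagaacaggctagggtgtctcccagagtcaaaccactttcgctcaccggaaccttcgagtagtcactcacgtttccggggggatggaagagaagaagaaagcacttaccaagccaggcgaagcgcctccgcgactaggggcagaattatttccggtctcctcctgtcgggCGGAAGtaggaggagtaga
Ddah1, chr3:145758442-145758721, + strand: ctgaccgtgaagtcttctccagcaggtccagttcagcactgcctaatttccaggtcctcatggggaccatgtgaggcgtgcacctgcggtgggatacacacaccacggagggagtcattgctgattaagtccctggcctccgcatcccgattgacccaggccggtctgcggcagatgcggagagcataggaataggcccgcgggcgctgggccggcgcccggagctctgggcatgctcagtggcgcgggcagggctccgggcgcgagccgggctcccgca
Ddah2, chr17:35058785-35059064, + strand: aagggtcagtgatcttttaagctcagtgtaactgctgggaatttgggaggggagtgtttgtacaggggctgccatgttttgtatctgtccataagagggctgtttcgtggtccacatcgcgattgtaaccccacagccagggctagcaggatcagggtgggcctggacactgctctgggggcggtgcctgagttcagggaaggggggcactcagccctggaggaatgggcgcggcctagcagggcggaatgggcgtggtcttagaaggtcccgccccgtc

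In Nostrin the match began at position -2 from the start, and in Nosip at position 12. The Ddah1 window was rich in G and C (66.1%, with 22 CG pairs) and that of Ddah2 less so (59.3%, with 10), while the median of all windows was 52.5%. Nostrin had 50% and 2 CG pairs. None of the searched strings contains another. Of the others, also searched on both strands, ACGTG, the core of hypoxia response elements, was found among the members in Nosip only (18.5% of all windows), TATAAA in Gch1 only (13.1%), and CACCC, which Krüppel-like factors can bind, in Nostrin, Nosip, Ddah2, Gch1 and 1 of 2 windows of Prkg1 (55.4%). These are matches of letters and not shown to be bound, and a window without a match says nothing on the factor.

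Levels were read against 2 limits. The lower was 100 units (log2 6.64), a number taken from the raw level that the study required of a probe set. Here it was set against the deposited values of these arrays, so a call is not the study's own filter. The higher was a background limit of log2 7.95 (247 units), the 95th percentile over 1245 probe sets of olfactory, vomeronasal and bitter taste receptors. By limma, fitted to all genes with Benjamini-Hochberg adjustment, all 10 members were called above 100 units, where 84.5% of all genes were called above and 13.7% below. At the background limit 8 of 10 members were called above, against 52.4% of all genes. The 8 include Nos1, whose call is lost with another prior variance (7 of 10), and 5 were called above when the limit was set at the 99th percentile of the receptors. The share of all genes was not counted under these alternatives, and 52.4% belongs to the main limit and prior. Arg2 was the only member called below it, as 41.5% of all genes were, and Ddah1 could not be told from it. The median level of the members was log2 8.70, beside 8.15 over all genes. Levels of different genes were not ordered, since probes differ in affinity.

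**Figure D1:**
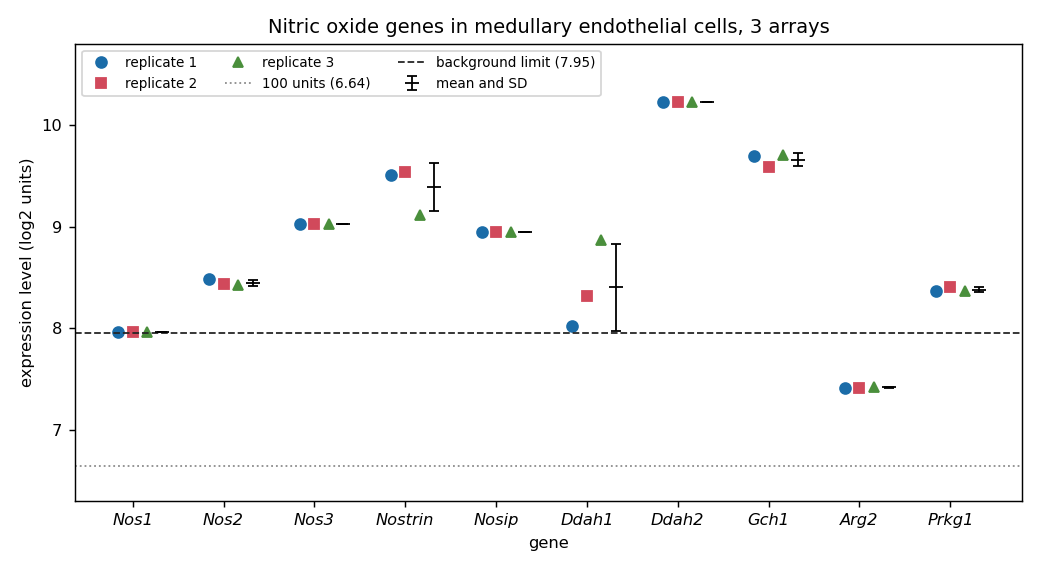
Expression level (y axis, log2 units) of the 10 members (x axis), the arrays as separate symbols beside a bar for mean and SD (n = 3). Dashed and dotted lines mark the background limit (7.95) and 100 units (6.64). Arg2 lies between the limits in all arrays, Nos1 on the background limit, and Ddah1 and Nostrin have visible spread.

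Of the synthases, Nos3, the enzyme of endothelial cells, had a log2 level of 9.02 in each of the 3 arrays, or 520 units. This was 1.08 log2 units above the background limit, a 2.11-fold difference. Exactly equal values are common in this table: 46.3% of all genes, and 4 of 10 members, had the same deposited value in all arrays. For such genes the fit sees no error, and the equal values do not show that they vary less than others. Their adjusted p-values are therefore given here from a limma fit whose prior variance came from genes with 3 different values. By that fit Nos3 was above the background limit with an adjusted p of 0.000167 and a standard error of 0.06 log2 units. It was also 0.30 above a stricter limit, the 99th percentile of the receptor probe sets (log2 8.72).

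Nos2, the inducible synthase known from activated macrophages, measured 8.48, 8.43 and 8.42 in replicates 1, 2 and 3 (8.45 ± 0.03, SD, n = 3, 349 units). The arrays differed by 0.06 at most, and all stood above the background limit, by 0.50 on average (adjusted p = 0.000927, limma). Against the 99th percentile of the receptors, however, the difference was -0.28, so this call holds for the main limit and not for the stricter one. Of 8 myeloid markers, 2 (C1qb and Cd68) were called above the background limit, beside 52.4% of all genes. These lay 0.02 and 0.05 log2 units above it, each with 1 value in all arrays. The list summed to between 1363 and 1420 units per array, with Ptprc at 6.68 and Adgre1 at 6.18 in every array. The part of such cells in the level of Nos2 was not tested.

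Nos1, the neuronal synthase that in the kidney is best known from the macula densa, was at 7.96 in every array (249 units). It lay 0.01 log2 units above the background limit. The call above that limit rested on the absence of spread alone: the adjusted p was 0.864 with the prior variance from genes with 3 different values, and 0.384 after centring the arrays on their medians, both by limma. Nos1 thus passed 100 units (adjusted p = 5.72e-05 with the same prior) and could not be separated from background.

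The deposited values of the synthase binding genes differed in spread. Nosip was among the 46.3% of all genes with 1 value in all arrays. Nosip, a ubiquitin ligase that can move Nos3 away from the membrane, was at 8.95 in all arrays (494 units), 1.00 log2 unit above the background limit (adjusted p = 0.000205 by limma with the prior variance from genes with 3 different values). Nostrin, an adaptor that draws Nos3 into vesicles, had 9.51 in replicate 1, 9.54 in replicate 2 and 9.12 in replicate 3 (9.39 ± 0.24, SD, n = 3). Replicates 1 and 2 were close to each other and replicate 3 was lowest, over a range of 0.42 log2 units. Its mean was 1.44 above the background limit (adjusted p = 0.00596, limma), and all 3 arrays were above. Without replicate 1 or replicate 2 the adjusted p became 0.094 and 0.0906, with the mean still 1.38 and 1.37 above. Of all genes, 9.11% had an SD at least as large, a share that also counts the 46.3% with 1 value in all arrays. Among genes with different values the median SD was 0.077. Nostrin was also on a list that the study drew with these arrays for genes higher in glomerular than in other kidney endothelium, so its level here is not independent of that choice.

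Of the enzymes that remove asymmetric dimethylarginine, Ddah2 had 1 deposited value in all arrays, as 46.3% of all genes had. Ddah1 had the widest spread of the members. Ddah2, the form known from vessels, was at 10.23 in each array (1201 units), 2.28 above the background limit, a 4.87-fold difference (adjusted p = 3.23e-05 by limma with the prior variance from genes with 3 different values). Ddah1, which is also abundant in kidney tubules, was at 8.02 in replicate 1, 8.31 in replicate 2 and 8.87 in replicate 3 (8.40 ± 0.43, SD, n = 3). The highest array exceeded the lowest by 0.85 log2 units or 1.80-fold, and 2.69% of all genes had an SD at least as large. That share also counts the 46.3% with 1 value in all arrays. The median SD of genes with different values was 0.077. Ddah1 was called above 100 units (adjusted p = 0.0128, limma), but this call was lost whenever 1 array was left out, with adjusted p-values of 0.0829, 0.136 and 0.0558 without replicates 1, 2 and 3. At the background limit it was not called, 0.46 above it with an adjusted p of 0.182, although every array lay above.

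Several marker lists also differed between the arrays, in different orders. Thick ascending limb markers were highest in replicate 1, where Ddah1 was lowest: Umod, the gene of uromodulin, stood at 11.61, 10.40 and 9.49 in replicates 1, 2 and 3, and the salt cotransporter gene Slc12a1 at 9.68, 8.07 and 7.81. Not all of that list moved this way, since Kcnj1, Cldn19 and Ptger3 had 1 value in all arrays, Cldn16 was lowest in replicate 1 and Cldn10 highest in replicate 2. Of the 7 markers, 5 were called above the background limit, beside 52.4% of all genes. Slc12a1 was not among them and was called at neither limit. Its adjusted p was 0.0655 at 100 units and 0.403 at the background limit (limma). The collecting duct list summed to 2629, 2604 and 2322 units, lowest in replicate 3, as Nostrin and 2276 of all 19938 genes were. Of its 8 markers, 4 were called above the background limit, near the 52.4% of all genes. Its water channel gene Aqp2 measured 9.67, 9.67 and 9.27. The endothelial list summed to 65302, 56451 and 58580 units and that of the descending vasa recta to 10801, 14179 and 12036. The ascending vasa recta list had 12104, 11107 and 9801. The part of these differences in the spread of Ddah1 and Nostrin was not tested.

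**Figure D2:**
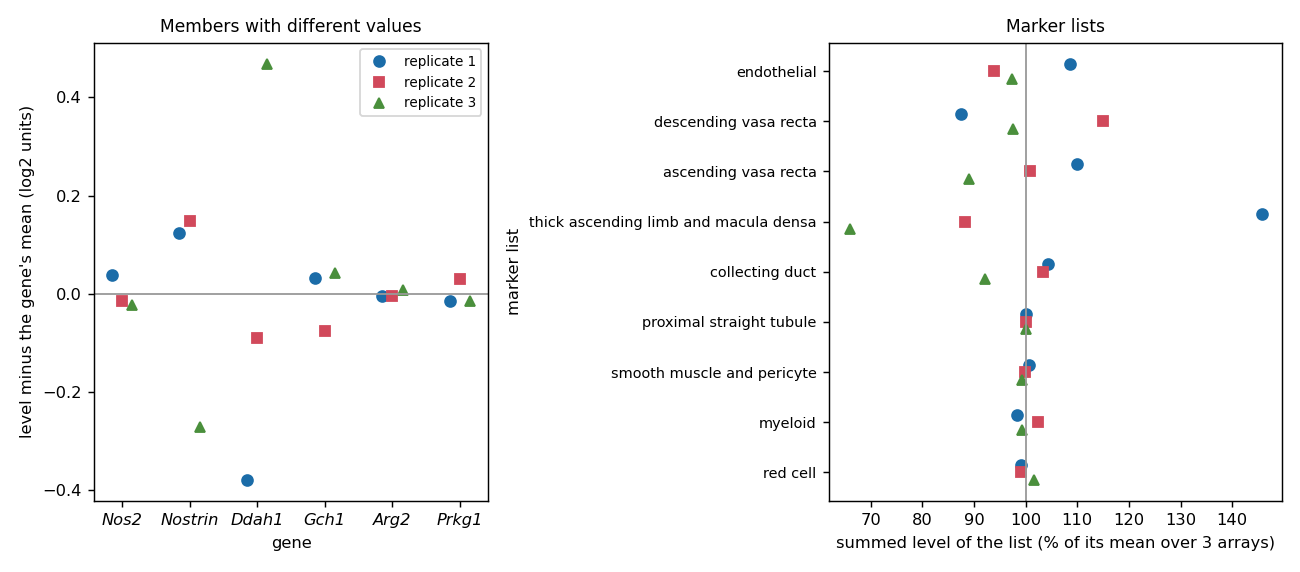
Left, level minus the gene's own mean (y axis, log2 units) in each array for the 6 members whose values were not all equal. Right, summed level of each marker list (y axis) in each array as a percentage of its mean over the 3 arrays (x axis). Ddah1 is lowest in replicate 1 and highest in replicate 3. The sum of the thick ascending limb list is 5552, 3364 and 2513 units in replicates 1, 2 and 3, an order that it takes from 2 of its 7 markers, Umod and Slc12a1.

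Gch1, GTP cyclohydrolase, sets the rate of tetrahydrobiopterin synthesis. It measured 9.69, 9.59 and 9.70 in replicates 1, 2 and 3 (9.66 ± 0.07, SD, n = 3, 810 units), and the arrays differed by 0.12 at most. It was 1.71 above the background limit (adjusted p = 0.000305, limma), a 3.28-fold difference, and all arrays lay above. Other genes of the cofactor were also measured. Its feedback regulator Gchfr was at 10.20, 10.03 and 9.63 (9.95 ± 0.29), lowest in replicate 3. Of the later enzymes, Pts was at 10.53 ± 0.02 and Spr at 8.84 ± 0.01, and the recycling genes Qdpr and Pcbd2 were at 9.04 ± 0.09 and 11.77 ± 0.15. All 6 measured cofactor genes were called above 100 units, as 84.5% of all genes were, and 5 above the background limit, beside 52.4% of all genes. The exception was Pcbd1, at 8.06, 8.43 and 7.84 (adjusted p = 0.415, limma).

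Genes of arginine supply and use lay on both sides of the background limit. Arg2, the mitochondrial arginase, was at 7.41, 7.41 and 7.42 (7.42 ± 0.01, SD, n = 3, 171 units), and all arrays lay below the background limit, by a mean difference of -0.53 (adjusted p = 3.19e-05, limma). As 2 of its values were equal, the prior variance from genes with 3 different values gave a larger adjusted p (0.00149, limma). It was 0.77 above 100 units, but a limit of 200 units would place it below. The liver arginase Arg1 was at 7.93 in all arrays, 0.02 under the background limit and not separable from it with the prior variance from genes with 3 different values (adjusted p = 0.746, limma). The arginine carrier Slc7a1 had 8.96, 9.11 and 8.96, and Asl, which regenerates arginine, had 8.50 in all arrays, both above the background limit. Slc7a2, a second arginine carrier, at 6.79 ± 0.04, was called below it. Of 4 measured genes in this list 2 were called above the background limit and 2 below, Arg1 with the reservation given. Beside them stand 52.4% and 41.5% of all genes, so the list was near the share of all genes.

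Prkg1, the cyclic GMP-dependent kinase, was at 8.37, 8.41 and 8.37 (8.38 ± 0.03, SD, n = 3, 333 units) and lay 0.43 above the background limit (adjusted p = 0.000731, limma). With 2 equal values, its adjusted p was 0.00304 under the prior variance from genes with 3 different values (limma). Against the 99th percentile of the receptors it was -0.34. Prkg1 is abundant in smooth muscle. Of 9 smooth muscle and pericyte markers 2 (Cspg4 and Notch3) were called above the background limit and 5 below, beside 52.4% and 41.5% of all genes. Acta2, among those below, was at 7.56 in all arrays, and the marker list summed to between 2073 and 2102 units per array. The part of such cells in the level of Prkg1 was not tested. Most other genes of cyclic GMP signaling lay below the background limit. Of the subunits of soluble guanylate cyclase, Gucy1a1 measured 7.61, 7.61 and 7.70, Gucy1b1 5.85 in all arrays and Gucy1a2 6.34, 6.28 and 6.34. All 3 were called below the background limit, and the latter 2 also below 100 units. The related kinase Prkg2 (6.76), the cyclic nucleotide phosphodiesterases Pde5a (7.34) and Pde3a (7.09) and the potassium channel Kcnma1 (6.43) were below the background limit too, each with 1 value in all arrays, and Kcnma1 was below 100 units. The call of Prkg2 above 100 units was lost with the prior variance from genes with 3 different values (adjusted p = 0.136, limma), as was that of Slc7a2 (adjusted p = 0.0852). Of the kinase substrates, Vasp (9.46 ± 0.13) and the myosin phosphatase subunit Ppp1r12a (11.29) were above the background limit. Mrvi1 (8.03 ± 0.05) was not called at that limit (adjusted p = 0.0782, limma). In all, 2 of 10 genes of cyclic GMP signaling were called above the background limit and 7 below, beside 52.4% and 41.5% of all genes. A level below the limit does not show that a gene is silent.

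Genes of proteins known to bind or modify Nos3 or Nos1 were above both limits through the probe sets used. Cav1, the caveolin that holds Nos3 inactive, was at 10.60, 10.67 and 10.37 (10.54 ± 0.16, SD, n = 3). The chaperone gene Hsp90aa1 (12.07 ± 0.06), the calmodulin genes Calm2 (13.20 ± 0.07) and Calm3 (10.29 ± 0.14), the kinase Akt1 (9.18), which phosphorylates Nos3, and Dynll1 (11.03 ± 0.14), a light chain that binds Nos1, were all above. So were the enzymes that add or remove lipid anchors of Nos3, Nmt1 (9.46 ± 0.01), Zdhhc21 (9.10 ± 0.30) and Lypla1 (8.95). All 10 measured partners were called above the background limit by limma, where 52.4% of all genes were. The Nos1 adaptor Nos1ap was among them at 8.60 ± 0.02 through the higher of its 2 probe sets, while its other probe set was at 7.28 in every array.

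Signals that raise Nos3 or its activity were mostly above the background limit as well. The shear-responsive factors Klf2 and Klf4 were at 9.36 ± 0.10 and 9.15 ± 0.10 (SD, n = 3), and the mechanosensitive channel Piezo1 at 9.43 in all arrays. The receptor genes Kdr (12.17 ± 0.21), Insr (11.50 ± 0.18) and Ednrb (12.78 ± 0.13) had no array near either limit. The apelin receptor gene Aplnr had a wide spread, with 12.55, 11.82 and 10.99 in replicates 1, 2 and 3. The study, which drew on these arrays, names Aplnr (as Agtrl1) as normally restricted to medullary endothelium. Its level here is therefore not independent of that choice. The bradykinin receptor genes Bdkrb1 and Bdkrb2 were at 8.20 and 7.94 ± 0.10. The muscarinic receptor gene Chrm3 was at 8.21 ± 0.36, with 8.62 in replicate 2 and equal, lower values in the others. Of these 10 genes 8 were called above the background limit, beside 52.4% of all genes. Bdkrb2 (adjusted p = 0.885, limma) and Chrm3 (adjusted p = 0.307, limma) were not called.

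Genes of methylarginine metabolism and of nitric oxide removal completed the lists. The arginine methyltransferases Prmt1 (9.19), Prmt3 (9.18) and Prmt5 (8.76 ± 0.06, SD, n = 3) were above the background limit, while Prmt6 (7.78) and the aminotransferase Agxt2 (7.37) were called below it. For Prmt6 the adjusted p was 0.0594 with the prior variance from genes with 3 different values, by limma. Adh5, which reduces S-nitrosoglutathione, was at 9.89 in all arrays. Cyb5r3, a reductase of the globin that limits nitric oxide in the vessel wall, was at 10.58, 9.94 and 10.73, lowest in replicate 2. The globins Cygb (8.22 ± 0.07) and Ngb (8.10 ± 0.03) lay close to the background limit, and for Ngb the call above it was lost with the prior variance from genes with 3 different values (adjusted p = 0.0734, limma). Over all lists, 49 of 55 genes were measured, and the others were not analysed here. Of these, 46 were called above 100 units and 3 below, beside 84.5% and 13.7% of all genes. At the background limit 34 were called above and 11 below, beside 52.4% and 41.5% of all genes, and 4 were not called. The calls of Ngb, Arg1 and Prmt6 among them were lost with the other prior, as stated. Their median level was log2 9.04, beside 8.15 over all genes.

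**Figure D3:**
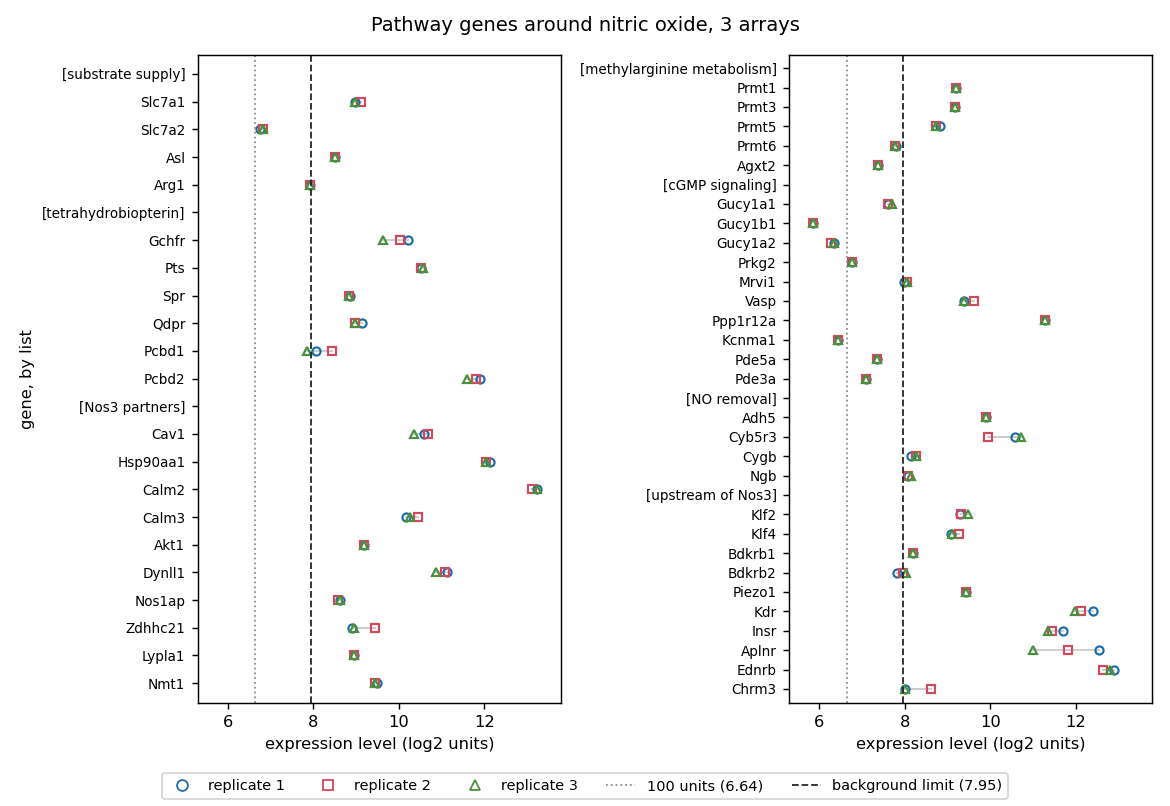
Expression level (x axis, log2 units) of the 49 measured pathway genes (y axis, grouped by list) in each of the 3 arrays. Dashed and dotted lines mark the background limit (7.95) and 100 units (6.64). All 10 genes of the list of synthase partners lie to the right of the background limit, and 7 of 10 genes of cyclic GMP signaling lie to its left.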

How the data were processed

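RNA of endothelial cells sorted from the renal medulla was measured on 3 arrays of 1 colour, all of 1 group. The authors deposited 1 log2 value for each probe set and array. Expression Console (Affymetrix) is the software in the labels, while the study describes RMA with GeneSpring. That the values are log2 follows from their range of 3.55 to 14.43. Probe-level files and scan dates were not used here, and the samples are described as independent. Precision is limited by the number of arrays. Over all probe sets the arrays correlated at 0.964 to 0.966 and their medians differed by at most 0.03.

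Of 35557 probe sets, 21789 named 1 gene in the platform annotation, and symbols were updated by Entrez identifier to RefSeq (21698 matched). Each gene was represented by its probe set with the highest mean. For each limit, the distance of the log2 level from it was tested against 0 by limma with no covariate (lmFit, eBayes, two-sided, Benjamini-Hochberg over 19938 genes, threshold 0.05). The step was first tried on simulated data. These took their spread from genes with 3 different values, so the trial did not cover genes with equal values. Alternatives changed the limit, the probe set rule, the normalization, the prior and the genes tested, or left out each replicate. The members, lists and tests were chosen with earlier results of these data known. All members and pathway genes are named, and the first 4 measured markers of a list or those on the other side of a limit from most. Other markers, chosen after their values were seen, are Cldn10, Cldn19 and Ptger3. R 4.3.3 with limma 3.58.1 and Python 3.11.15 with pandas 2.3.3 and matplotlib 3.10.9 were used.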

Additional observations from a re-analysis of the deposited data

Results flagged for a closer look

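Probe sets that name several genes were left out of the lists, and 4 of them that name a listed gene lay above the background limit in all arrays. The 2 probe sets shared by Ass1, which makes the precursor of arginine, and Gm5424 were at log2 8.74 and 8.73, each with 1 value in all arrays. The 2 shared by the beta globin genes Hbb-bt, Hbb-bs, Hbb-b2 and Hbb-b1 were at 8.71, 8.71 and 8.40 and at 8.90, 8.93 and 8.40 in replicates 1, 2 and 3, with means of 8.61 and 8.74, both lowest in replicate 3. A further 2, shared by the alpha globin genes Hba-a1 and Hba-a2, measured 8.98, 8.98 and 7.92 and 8.85, 8.85 and 7.82, under the background limit in replicate 3, where Nostrin was lowest too. Their part in the spread of Nostrin was not tested. None of these levels can be assigned to 1 gene.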

How the results depend on the processing

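No paired analysis was possible because all arrays belong to 1 group. The count of members above 100 units was 10, with 8 under a limit of 200 units and 9 without any 1 replicate. The count above the background limit was 8. It was 7 to 8 without 1 replicate, 7 after centring, after quantile normalization and with the other prior, and it fell to 5 with the limit at the 99th percentile of the receptor probe sets, where 3 members that had been called above and Ddah1, which had not, lay below: Nos1 at -0.76, Nos2 at -0.28, Ddah1 at -0.32 and Prkg1 at -0.34. With 200 units in place of 100, Arg2 stood at -0.23. Pathway genes above 100 units numbered 38 to 49 over the alternatives, and those above the background limit 27 to 38. Shares of all genes were counted under the main settings only, so the counts under alternatives have no such share beside them. Each member kept the sign of its difference under all other alternatives run. Most of the few lost calls concern Nos1, Nostrin and Ddah1 and stand beside their values above. Without 1 replicate the level of Ddah1 moved by up to 0.23, and no member moved by more.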
